A study of Homo sapiens with 6 samples.

Results

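A set of 10 genes that build the physical and calcium bridge between the endoplasmic reticulum (ER) and mitochondria were followed in the human ovarian cancer cell line SKOV3. They are ITPR1, ITPR2, ITPR3, VDAC1, VDAC2, VDAC3, HSPA9, RMDN3, VAPB and PACS2. They were found by gene symbol, with 1 row each among the 57905 genes of the deposited table. The cells carried an shRNA against CPT1A, which attaches fatty acids to carnitine for their entry into mitochondria, in 3 libraries, and were wild type in 3 control libraries. Both groups were grown in normal culture, and the titles call the libraries of a group biological replicates. No control hairpin is mentioned for the wild-type cells, the column names of the knockdown libraries carry an unexplained tag (sh2), and nothing tells whether the 3 knockdown libraries came from separate introductions of the hairpin. The p-values set the difference between the groups against the spread between these libraries. An effect of lower CPT1A cannot be told apart from an effect of carrying a hairpin. The series title names mitochondria-associated membranes, the ER regions held close to mitochondria, which is the setting in which these genes are of interest.

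At such contacts the IP3 receptors, encoded by the ITPR genes, release calcium from the ER when inositol trisphosphate (IP3) binds them. The VDAC genes encode the channels of the outer mitochondrial membrane that let this calcium through, and the chaperone of HSPA9, known as mortalin or GRP75, links receptor and channel. A second bridge is made by VAPB on the ER and RMDN3, also called PTPIP51, on the mitochondrion, and PACS2 is a sorting protein known to keep the organelles close together. In the annotation the authors deposited, 6 of the 10 genes carried a mitochondrial cellular component term and 5 an ER term, with PACS2 carrying both, against 9.95% and 6.81% of the 12784 tested genes.

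Summed gene counts were 15740143 to 18831831 in shRNA libraries and 18287159 to 22271565 in control libraries. CPT1A was at 2.16, 2.00 and 1.96 FPKM (the deposited level per exonic length and library size) in the shRNA libraries, against 6.70, 8.06 and 8 FPKM in the control libraries, for which p was 0.1 in a two-sided exact permutation test, the lowest value possible for 3 against 3. On the first principal component, which held 57.4% of the variance, control replicate 2 was at -17.2, the other control libraries at -38.5 and -38.0, and the shRNA libraries at 28.4 to 35.1. Epithelial genes (8 of 8) and 4 of 7 genes known from ovarian cancer, PAX8, ERBB2, MSLN and FOLR1, were expressed, whereas MUC16 was at or below 0.03 FPKM and WFDC2 at or below 0.45 FPKM in every library. The summed level of the 8 epithelial markers was 879 to 948 FPKM in shRNA libraries and 1351 to 1704 FPKM in control libraries. KRT7, KRT8 and KRT19 made up most of that gap, whereas the groups overlapped for KRT18, CDH1 and CLDN4. Of 9 fibroblast markers 1 passed the expression minimum, with sums of 0.68 to 0.99 and 3.13 to 3.25 FPKM. None of the 5 endothelial or 9 immune markers in the table passed it, and their sums were at most 0.73 and 1.18 FPKM in shRNA libraries and 0.36 and 1.19 FPKM in control libraries. The part of these marker levels in the results below was not tested. In bulk RNA fewer cells expressing a gene and less RNA per cell cannot be told apart.

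Among the 10 genes, 5 rose in the CPT1A shRNA libraries, 4 were tested without passing, 0 fell and 1 was too low to be tested. No gene of the 10 was lower at an unadjusted p under 0.05 (0 in edgeR, 0 in DESeq2 and 0 in limma-voom). A gene was called when edgeR's quasi-likelihood test gave a Benjamini-Hochberg adjusted p under 0.05 over the 12784 genes that reached 1 FPKM in 3 or more of the 6 libraries. In that test 13.8% of all genes were called higher and 13.7% lower. The genes that rose were ITPR2, ITPR3, HSPA9, RMDN3 and VAPB. In these 5 of the 9 tested genes all 3 shRNA libraries lay above all 3 control libraries, which was so for 25.8% of all tested genes. The calls and this separation come from the same values. ITPR2 reached 1 FPKM in all 3 shRNA libraries but in only 1 control library, so it could enter the test only through the group in which it was high. Without it 4 of 8 tested genes were called. With edgeR's own count-based filter, which kept all 10, 6 were called higher and none lower, against 12.4% of 15880 genes in each direction. The median log2 change of the 10 was then 0.42 and that of all those genes -0.02.

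**Figure D1:**
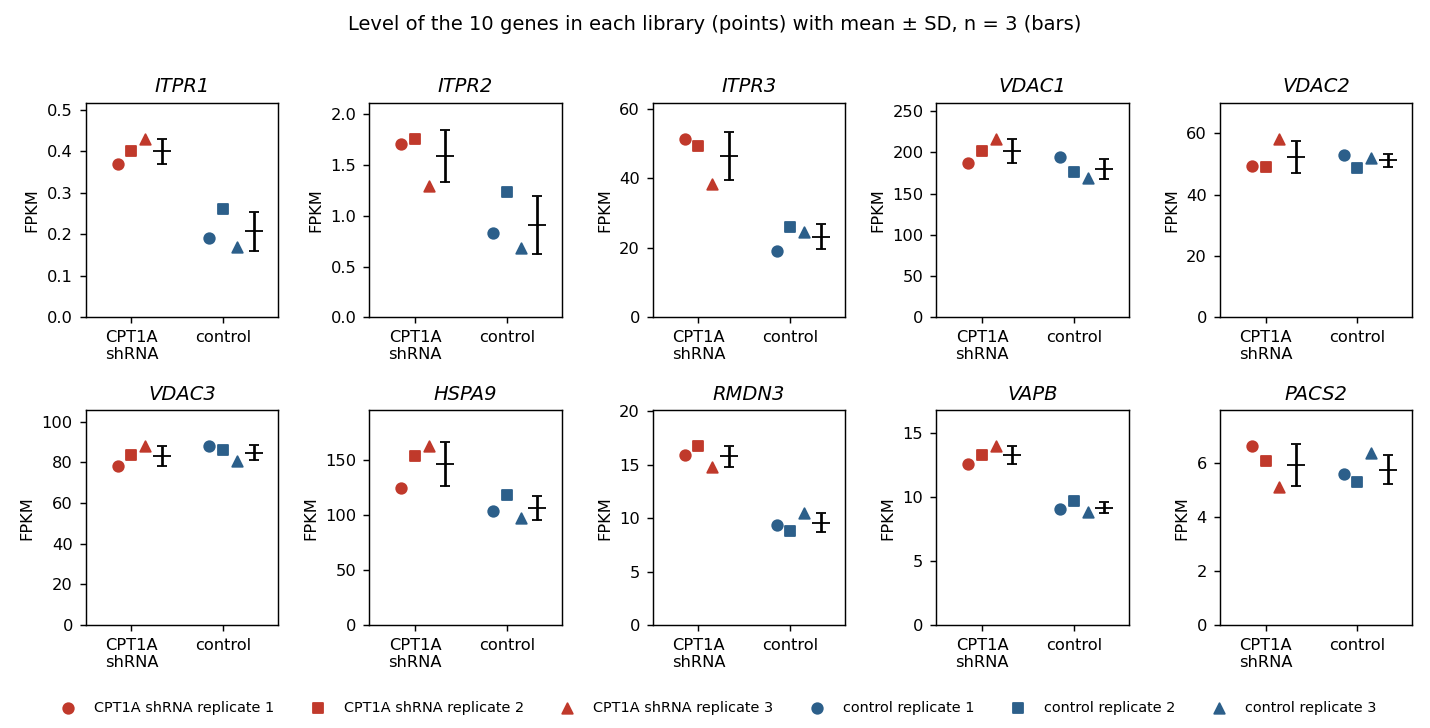
Level in FPKM (vertical axes, each from 0) of the 10 genes in each of 3 CPT1A shRNA libraries (red, left) and 3 control libraries (blue, right), with the mean and SD of each group as bars. The groups are separate for the 3 ITPR genes, HSPA9, RMDN3 and VAPB, and overlap for the 3 VDAC genes and PACS2.

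ITPR3 was by far the most expressed IP3 receptor gene and rose by a fitted 1.9-fold. Fitted folds come from TMM-scaled counts and differ from the ratio of the mean FPKM values. It was at 51.41, 49.15 and 38.45 FPKM in the shRNA libraries, against 19.05, 26 and 24.65 FPKM in the control libraries. Replicate 3 was the lowest shRNA library and replicate 1 the lowest control library, and the groups were far apart. The means were 46.3 ± 6.9 FPKM in shRNA and 23.2 ± 3.7 FPKM in control libraries (SD, n = 3 each). The log2 change was 0.93 ± 0.18 (SE), with an edgeR adjusted p of 0.00044, the smallest of the 10 genes, and 3.79% of tested genes had a larger fitted increase. ITPR3 (ENSG00000096433) spans positions 33588142 to 33664351 of chromosome 6 (plus strand). Gene positions are the authors', on a build that is not given in the sources. Its last 2282 bases overlap UQCC2 on the other strand, an assembly factor gene of respiratory complex III that fell (log2 change -0.70 ± 0.14, edgeR adjusted p = 0.00368). UQCC2 had 463 to 570 counts in shRNA and 822 to 908 counts in control libraries, against 7146 to 9537 and 3439 to 5715 counts for ITPR3.

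The promoter of ITPR3 is shown because the gene had the largest change of the 10, and those of HSPA9, RMDN3 and VAPB follow with their values because these genes rose with it. Each is RefSeq's window from 250 bases before to 50 bases after the annotated start, on GRCh38.p14, printed 5′ to 3′ on the gene's strand. Capitals mark matches, on either strand, to the GC box GGGCGG, the CCAAT box CCAAT, the E-box CACGTG, the cAMP response element TGACGTCA or the TATA box TATAAA. Windows of 8 of the 10 genes were examined, and ITPR2 and VDAC3 were not among them. The ITPR3 window, chr6:33621072-33621371, held 3 GC boxes and no match to the other motifs, and 76.0% of it was G or C, against a median of 58.7% over all 35116 windows. Genes that were not called had such features too. The PACS2 window held 8 GC boxes and 2 CCAAT boxes, and 87% of it was G or C. Window 2 of VDAC2 held 2 GC boxes and 1 E-box, and VDAC1 windows 1 to 4 held 0 to 4 GC boxes.
ITPR3: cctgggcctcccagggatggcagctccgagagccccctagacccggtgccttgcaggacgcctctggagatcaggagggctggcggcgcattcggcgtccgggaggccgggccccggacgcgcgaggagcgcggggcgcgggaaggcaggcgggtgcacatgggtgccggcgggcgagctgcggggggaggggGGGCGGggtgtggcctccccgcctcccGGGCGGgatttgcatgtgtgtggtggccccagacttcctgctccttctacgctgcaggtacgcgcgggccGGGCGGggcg

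ITPR2 and ITPR1 were also higher in the shRNA libraries, at much lower levels. ITPR2, the receptor with the highest affinity for IP3, was at 1.71, 1.76 and 1.29 FPKM in shRNA libraries, against 0.83, 1.23 and 0.68 FPKM in control libraries. The lowest shRNA library, replicate 3, stood just above the highest control library, replicate 2. The fitted change was 1.65-fold (log2 0.73 ± 0.27, edgeR adjusted p = 0.0219). Leaving out control replicate 1, shRNA replicate 1 or shRNA replicate 2 ended the call, with edgeR adjusted p-values of 0.105, 0.0632 and 0.0814. It rested on 289 to 381 counts in shRNA and 155 to 325 counts in control libraries. ITPR2 (ENSG00000123104) spans positions 26490342 to 26986131 of chromosome 12 (minus strand).

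ITPR1, the main form of neurons and of the cerebellum, was at 0.37, 0.40 and 0.43 FPKM in shRNA libraries, against 0.19, 0.26 and 0.17 FPKM in control libraries. It stayed below the 1 FPKM minimum in all 6 libraries, and the groups did not overlap. Its counts were 89, 81 and 105 in shRNA and 45, 76 and 43 in control libraries. With edgeR's count-based filter the fitted change was 1.80-fold (log2 0.85 ± 0.17, edgeR adjusted p = 0.0164). AC018816.3, on the other strand, overlaps ITPR1 over 33547 bases and had 14 to 37 counts in shRNA and 19 to 30 counts in control libraries. ITPR1 (ENSG00000150995) spans positions 4535032 to 4889524 of chromosome 3 (plus strand).

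Per length, ITPR3 supplied 95.9% ± 0.2 of the summed ITPR level in shRNA and 95.4% ± 1.1 in control libraries, ITPR2 3.28% ± 0.13 and 3.76% ± 0.96, and ITPR1 0.85% ± 0.20 and 0.85% ± 0.16 (mean ± SD, n = 3 each). The shares differed by less than the SD of the control libraries, while the sum of the 3 genes was 48.3 ± 7.1 FPKM in shRNA and 24.4 ± 3.8 FPKM in control libraries.

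**Figure D2:**
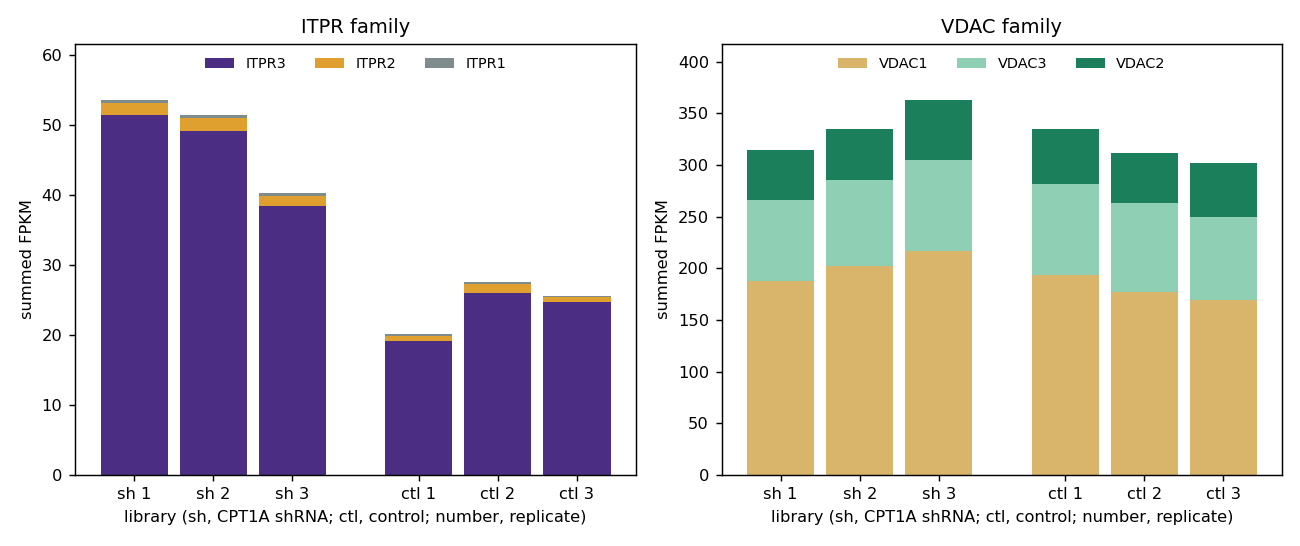
Summed FPKM (vertical axis, from 0) of the IP3 receptor genes (left) and of the VDAC genes (right) in each library, stacked by gene, with CPT1A shRNA libraries left of control libraries. The ITPR sum was 40.2 to 53.5 FPKM in shRNA and 20.1 to 27.5 FPKM in control libraries, and the VDAC sum was 314.8 to 362.7 FPKM in shRNA and 301.9 to 334.4 FPKM in control libraries.

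The VDAC genes of the outer membrane did not pass the test. VDAC1, the most abundant of the 10, was at 187.42, 201.76 and 216.57 FPKM in shRNA libraries, against 193.76, 176.56 and 169.43 FPKM in control libraries (log2 change 0.09 ± 0.09, edgeR adjusted p = 0.529). Control replicate 1 lay above shRNA replicate 1, so the groups overlapped. VDAC2, known for holding the apoptosis effector BAK at the outer membrane, was at 49.21, 49.04 and 58.21 FPKM in shRNA libraries, against 52.81, 48.81 and 52.00 FPKM in control libraries (log2 change -0.05 ± 0.10, edgeR adjusted p = 0.80). VDAC3, the form known for its oxidation-sensitive cysteines, was at 78.14, 83.58 and 87.91 FPKM in shRNA libraries, against 87.80, 86.12 and 80.49 FPKM in control libraries (log2 change -0.10 ± 0.06, edgeR adjusted p = 0.50). For both genes the values of the groups were interleaved.

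The composition of the VDAC family was narrow within groups. VDAC1 made up 59.9% ± 0.4 of the summed VDAC level in shRNA and 56.9% ± 0.9 in control libraries, and VDAC3 24.7% ± 0.4 and 26.9% ± 0.7. The level of VDAC1 over that of VDAC3 was 2.40, 2.41 and 2.46 in shRNA libraries, against 2.21, 2.05 and 2.10 in control libraries. These shares and ratios are descriptions without a test, and the groups did not overlap in the ratio. They overlapped in the share of VDAC2, at 14.7% to 16.0% in shRNA and 15.7% to 17.2% in control libraries. VDAC1 has 12 named pseudogenes in the table, of which 5 held a count. Their sum was 1.87% of the VDAC1 counts in shRNA and 1.5% in control libraries. These counts do not tell how many reads matched both VDAC1 and a copy. VDAC1 (ENSG00000213585) spans positions 133307606 to 133340824 of chromosome 5 (minus strand), VDAC2 (ENSG00000165637) spans positions 76969912 to 76991206 of chromosome 10 (plus strand), and VDAC3 (ENSG00000078668) spans positions 42249142 to 42263415 of chromosome 8 (plus strand).

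HSPA9, the chaperone that joins receptor to channel and also drives protein import in the matrix, rose by a smaller factor. It was at 123.95, 153.11 and 162.19 FPKM in shRNA libraries, against 103.67, 117.98 and 97.03 FPKM in control libraries. The lowest shRNA library, replicate 1, was close to the highest control library, replicate 2. The fitted change was 1.31-fold (log2 0.39 ± 0.14, edgeR adjusted p = 0.0258). Leaving out control replicate 1, shRNA replicate 2 or shRNA replicate 3 ended the call, with edgeR adjusted p-values of 0.103, 0.115 and 0.116. HSPA9 (ENSG00000113013) spans positions 137890571 to 137911133 of chromosome 5 (minus strand), and its single named pseudogene had at most 1 count in any library.

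The HSPA9 window, chr5:138575352-138575651 on the minus strand, held 2 GC boxes and 1 E-box. Among all 35116 windows 45% held a GC box and 7.26% this E-box.
HSPA9: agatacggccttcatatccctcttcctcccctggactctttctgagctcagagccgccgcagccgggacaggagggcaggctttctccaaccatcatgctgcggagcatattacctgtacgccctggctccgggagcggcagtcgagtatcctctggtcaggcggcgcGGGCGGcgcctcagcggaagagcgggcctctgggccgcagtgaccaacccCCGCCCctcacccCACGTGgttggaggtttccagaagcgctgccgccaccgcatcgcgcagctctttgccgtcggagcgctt

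Both partners of the VAPB and RMDN3 tether rose. RMDN3, the outer-membrane partner, was at 15.88, 16.72 and 14.74 FPKM in shRNA libraries, against 9.38, 8.80 and 10.52 FPKM in control libraries. The gap between the groups was wider than the spread within either. The means were 15.8 ± 1.0 FPKM in shRNA and 9.57 ± 0.88 FPKM in control libraries (SD, n = 3 each). The fitted change was 1.57-fold (log2 0.65 ± 0.11, edgeR adjusted p = 0.00243). RMDN3 (ENSG00000137824) spans positions 41028082 to 41048049 of chromosome 15 (minus strand), and no other gene of the table overlapped it.

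VAPB, the ER partner, whose mutation is a known cause of an inherited motor neuron disease, was at 12.60, 13.26 and 13.98 FPKM in shRNA libraries, against 9.08, 9.67 and 8.81 FPKM in control libraries. The groups were again apart, with a mean of 13.3 ± 0.7 FPKM in shRNA and 9.19 ± 0.44 FPKM in control libraries (SD, n = 3 each). The fitted change was 1.38-fold (log2 0.46 ± 0.05, edgeR adjusted p = 0.00616). With the trend of change on exonic length removed, it was log2 0.24 and no longer called (edgeR adjusted p = 0.128). VAPB (ENSG00000124164) spans positions 56964178 to 57026157 of chromosome 20 (plus strand), and no other gene of the table overlapped it.

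The RMDN3 window, chr15:40755205-40755504 on the minus strand, held 4 GC boxes and 1 full cAMP response element, a motif present in 1.85% of windows. The VAPB window, chr20:58388979-58389278 on the plus strand, held 4 GC boxes and no match to the other motifs. A match is a run of letters and was not tested as a binding site.
RMDN3: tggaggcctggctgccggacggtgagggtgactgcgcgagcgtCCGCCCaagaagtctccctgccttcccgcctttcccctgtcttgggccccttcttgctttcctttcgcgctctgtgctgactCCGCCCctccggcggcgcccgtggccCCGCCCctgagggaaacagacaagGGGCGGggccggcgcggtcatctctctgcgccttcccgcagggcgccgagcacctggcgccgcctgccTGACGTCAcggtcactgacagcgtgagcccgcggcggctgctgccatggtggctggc
VAPB: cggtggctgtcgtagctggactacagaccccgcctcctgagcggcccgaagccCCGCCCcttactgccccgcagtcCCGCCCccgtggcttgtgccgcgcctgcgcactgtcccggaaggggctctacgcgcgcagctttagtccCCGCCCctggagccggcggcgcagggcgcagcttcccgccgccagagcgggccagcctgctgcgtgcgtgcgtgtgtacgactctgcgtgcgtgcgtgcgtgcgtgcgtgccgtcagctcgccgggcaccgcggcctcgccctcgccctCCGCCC

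PACS2 did not pass the test. It was at 6.64, 6.10 and 5.11 FPKM in shRNA libraries, against 5.62, 5.32 and 6.38 FPKM in control libraries, with interleaved values (log2 change -0.03 ± 0.14, edgeR adjusted p = 0.889). PACS2 (ENSG00000179364) spans positions 105766900 to 105864484 of chromosome 14 (plus strand). Its first 15027 bases overlap BRF1 on the other strand, a subunit gene of a transcription factor of RNA polymerase III, which was not called either (log2 change 0.04 ± 0.09, edgeR adjusted p = 0.852).

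Ordered by level per length, the 10 genes ran VDAC1, HSPA9, VDAC3, VDAC2, ITPR3, RMDN3, VAPB, PACS2, ITPR2 and ITPR1 by mean FPKM, in the shRNA as in the control libraries. Among shRNA libraries VDAC2 (49.04 to 58.21 FPKM) and ITPR3 (38.45 to 51.41 FPKM) overlapped, whereas in control libraries VDAC2 (48.81 to 52.81 FPKM) lay above ITPR3 (19.05 to 26 FPKM). RMDN3 lay above VAPB in all shRNA libraries and overlapped it in control libraries (8.80 to 10.52 against 8.81 to 9.67 FPKM). The level of VDAC1 over that of ITPR3 was 3.65, 4.10 and 5.63 in shRNA libraries, against 10.2, 6.79 and 6.87 in control libraries. The range of that ratio did not overlap between the groups, and its mean was 4.46 ± 1.04 in shRNA and 7.95 ± 1.93 in control libraries. VDAC1 over VDAC2 did not overlap either (3.72 to 4.11 against 3.26 to 3.67). HSPA9 over ITPR3 overlapped (2.41 to 4.22 against 3.94 to 5.44), as did VAPB over RMDN3 (0.79 to 0.95 against 0.84 to 1.10). So did ITPR3 over ITPR2. How often such ratios separate the groups over all gene pairs was not computed.

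Exonic length moved with the changes across the whole table. The median log2 change was -0.15 for the 2404 tested genes of 1500 to 3000 exonic bases, -0.04 for the 3415 genes of 3000 to 5000 bases, 0.07 for the 3276 genes of 5000 to 8000 bases and 0.17 for the 1485 genes of 8000 to 12000 bases. In these bins 7.61%, 10.5%, 17.7% and 25.4% of genes were called higher. ITPR3 (9870 bases), VAPB (10585) and ITPR2 (11856) fall in the bin of 8000 to 12000 bases and RMDN3 (5114) in the one before it. HSPA9 (4751) and VDAC1 (3164) are in the bin with a median just below 0. With the length trend of each library removed, ITPR3 kept its call at a log2 change of 0.72 (edgeR adjusted p = 0.00138), RMDN3 at 0.62 (edgeR adjusted p = 0.00332), HSPA9 at 0.38 (edgeR adjusted p = 0.0230) and ITPR2 at 0.49 (edgeR adjusted p = 0.0492). VAPB did not, as given with its values. PACS2, at 12363 bases, was at -0.31 in that fit (edgeR adjusted p = 0.148). ITPR1, at 12902 bases, was not in that fit. Of the 444 tested genes of 12000 bases or more, 37.4% were called higher, and their median log2 change was 0.29.

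**Figure D3:**
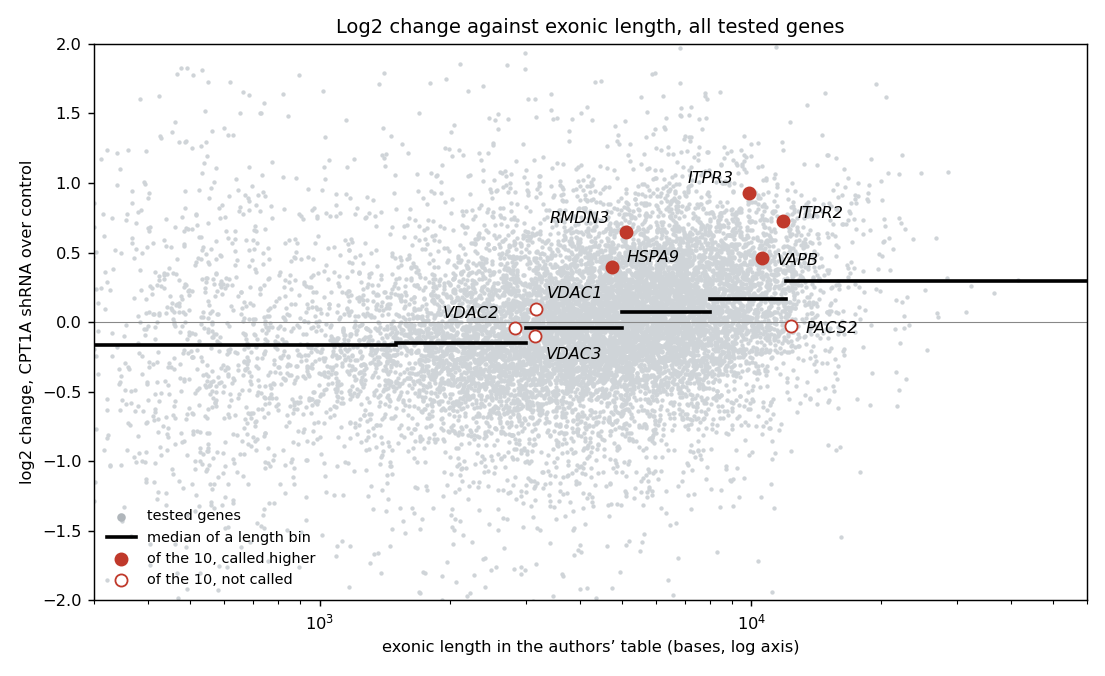
Log2 change, CPT1A shRNA over control (vertical axis), against exonic length in bases (horizontal log axis) for tested genes (grey), with the median of each of 6 length bins (black lines) and 9 of the 10 genes (red, filled where called higher). Another 342 tested genes lie outside the axes. Medians run from -0.17 in the shortest bin to 0.29 in the longest, and ITPR3, ITPR2 and VAPB sit above the line of their bin.

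The genes whose log2 CPM (count scaled to TMM-adjusted library size) followed that of ITPR3 most closely over the 6 libraries were HUWE1, STARD9 and SETD1B, with Pearson r of 0.999, 0.998 and 0.997. These 6 points share their libraries and fall into 2 groups, so that the difference between groups enters r. The correlation within groups was not computed. The ubiquitin ligase gene HUWE1 was at 36.11, 34.76 and 28.30 FPKM in shRNA libraries, against 14.33, 19.17 and 17.60 FPKM in control libraries. The 3 genes have 17373, 20706 and 8386 exonic bases.

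Around the IP3 receptors, 7 of 30 tested genes of IP3 production, IP3 removal and receptor regulation were called higher and 5 lower, beside 13.8% and 13.7% of all tested genes. Their median log2 change was 0.10, against -0.01 over all tested genes. ERLIN2 and ERLIN1, which form the ER complex known to bind activated IP3 receptors before their degradation, rose. ERLIN2 was at 17.05, 16.80 and 17.04 FPKM in shRNA libraries, against 6.20, 7.87 and 6.47 FPKM in control libraries (log2 1.24 ± 0.09, edgeR adjusted p = 2.27e-05). ERLIN1 was at 12.5 ± 0.9 FPKM in shRNA and 6.59 ± 0.61 FPKM in control libraries (SD, n = 3 each; edgeR adjusted p = 0.000394). PLCB4, a phospholipase that makes IP3, fell by a fitted 2.20-fold (edgeR adjusted p = 0.000519). Other called genes were PLCG2, INPP5A, ITPRIP, MCL1 and AHCYL1, all higher, and HSPA5, BCL2L1 and GRINA, all lower.

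Of 31 tested other contact-site proteins 4 were called higher and 2 lower, beside 13.8% and 13.7% of all tested genes, with a median log2 change of 0.02. DESeq2 called 7 higher and 3 lower, and leaving out 1 library gave 2 to 9 higher (2 without shRNA replicate 2 or control replicate 1, 9 without control replicate 2) and 1 to 5 lower (5 without control replicate 2 or 3). CAV1, the caveolin found also at these contacts, fell, with 69.6 ± 2.1 FPKM in shRNA and 155.9 ± 20.8 FPKM in control libraries (SD, n = 3 each) and a fitted log2 change of -1.23 ± 0.10 (edgeR adjusted p = 1.8e-05). The actin nucleator gene SPIRE1 (log2 0.88 ± 0.19, edgeR adjusted p = 0.00121) and the lipid transfer gene VPS13D (log2 0.69 ± 0.16, edgeR adjusted p = 0.00443) rose. With the length trend removed VPS13D was at log2 0.30 and not called (edgeR adjusted p = 0.0848). MFN2, the mitofusin of both organelles, was at 42.13, 41.11 and 41.87 FPKM in shRNA libraries, against 27.18, 31.38 and 31.46 FPKM in control libraries (log2 0.40 ± 0.06, edgeR adjusted p = 0.0118), and it was not called without shRNA replicate 2 (edgeR adjusted p = 0.0605) or control replicate 1 (edgeR adjusted p = 0.0833). TOMM70A, an import receptor known to bind IP3 receptors, was called higher and the mitophagy receptor FUNDC1 lower. The ER tether gene PDZD8 had 8.23 ± 0.40 FPKM in shRNA and 5.71 ± 1.73 FPKM in control libraries and did not pass (edgeR adjusted p = 0.0711), and VAPA, the paralog of VAPB, did not pass (log2 0.11 ± 0.08, edgeR adjusted p = 0.454).

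On the mitochondrial side 0 of the 9 genes of calcium uptake and release was called in edgeR's test. Of all tested genes 13.8% were called higher and 13.7% lower. The median log2 change of the 9 was -0.03. The uniporter pore gene MCU had 38.1 ± 1.9 FPKM in shRNA and 31.1 ± 2.3 FPKM in control libraries (SD, n = 3 each; log2 0.22 ± 0.06, edgeR adjusted p = 0.129). At an unadjusted p under 0.05 in edgeR 1 was higher, MCUR1, and 1 lower, SMDT1, while DESeq2 called 0 and limma-voom called 0 of the 9. Other settings made calls: 2 higher with total counts only, 1 higher with limma at either FPKM pseudocount, 1 higher and 1 lower at a minimum of 5 FPKM, 2 higher and 1 lower without control replicate 2, and 1 lower without control replicate 3. Of 10 tested VDAC-binding proteins 1 was called higher and 2 lower, beside 13.8% and 13.7% of all tested genes (median log2 change -0.07). None was called lower, a count of 0, in limma-voom, in limma on FPKM, with total counts only, with the length trend removed or without any single library but control replicate 2, whose removal gave 4. The apoptosis effector BAK1 was called higher (log2 0.43 ± 0.10, edgeR adjusted p = 0.0167), but not without shRNA replicate 2, shRNA replicate 3 or control replicate 1 (edgeR adjusted p = 0.0714, 0.0539 and 0.068). The outer-membrane protein TSPO (log2 -0.46 ± 0.21, edgeR adjusted p = 0.039) and the adenine nucleotide carrier SLC25A6 (log2 -0.36 ± 0.15, edgeR adjusted p = 0.0433) were called lower close to the threshold. TSPO lost the call in 10 and SLC25A6 in 11 of 18 alternatives, among them the fit without the length trend, at log2 -0.26 and -0.20. TSPO was at 80.11 FPKM in control replicate 2, inside the shRNA range of 76.50 to 84.35 FPKM, and at 115.7 and 117.9 FPKM in the other control libraries.

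Of 12 tested partners of HSPA9 in import and folding 1 was called lower and 0 higher in edgeR's test, beside 13.7% and 13.8% of all tested genes. Higher genes were 0 also at an unadjusted p under 0.05, in DESeq2 and in limma-voom, and 1 with total counts only. The median log2 change of the 12 was -0.25. Without control replicate 2 the lower calls were 5, and without control replicate 3 they were 3. The lower gene was TIMM50, of the inner-membrane translocase, at 8.85 ± 0.74 FPKM in shRNA and 13.5 ± 1.2 FPKM in control libraries (SD, n = 3 each; edgeR adjusted p = 0.00183). HSPD1, the matrix chaperonin, had 117.0 ± 21.8 FPKM in shRNA and 137.5 ± 19.4 FPKM in control libraries and did not pass (edgeR adjusted p = 0.134). Another list held genes linked to VAPB or to the FFAT motif, a short acidic peptide that VAPB binds. Of its 18 tested genes 3 were called higher and 1 lower, beside 13.8% and 13.7% of all tested genes. Their median log2 change was 0.03. The higher calls were 1 without control replicate 1 and 2 without shRNA replicate 2 or the length trend. PITPNM3 (log2 0.64 ± 0.07, edgeR adjusted p = 0.00159), PITPNM2 (log2 0.54 ± 0.13, edgeR adjusted p = 0.00917) and OSBP (log2 0.44 ± 0.07, edgeR adjusted p = 0.0106) rose. PITPNM2 was not called without the length trend (log2 0.35, edgeR adjusted p = 0.0598) or control replicate 1 (edgeR adjusted p = 0.0666), nor OSBP without shRNA replicate 2 (edgeR adjusted p = 0.0589) or control replicate 1 (edgeR adjusted p = 0.0756). OSBPL9 fell (log2 -0.62 ± 0.11, edgeR adjusted p = 0.00331). The fission factor gene MFF, named in the series title, did not pass (log2 -0.11 ± 0.07, edgeR adjusted p = 0.465).

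**Figure D4:**
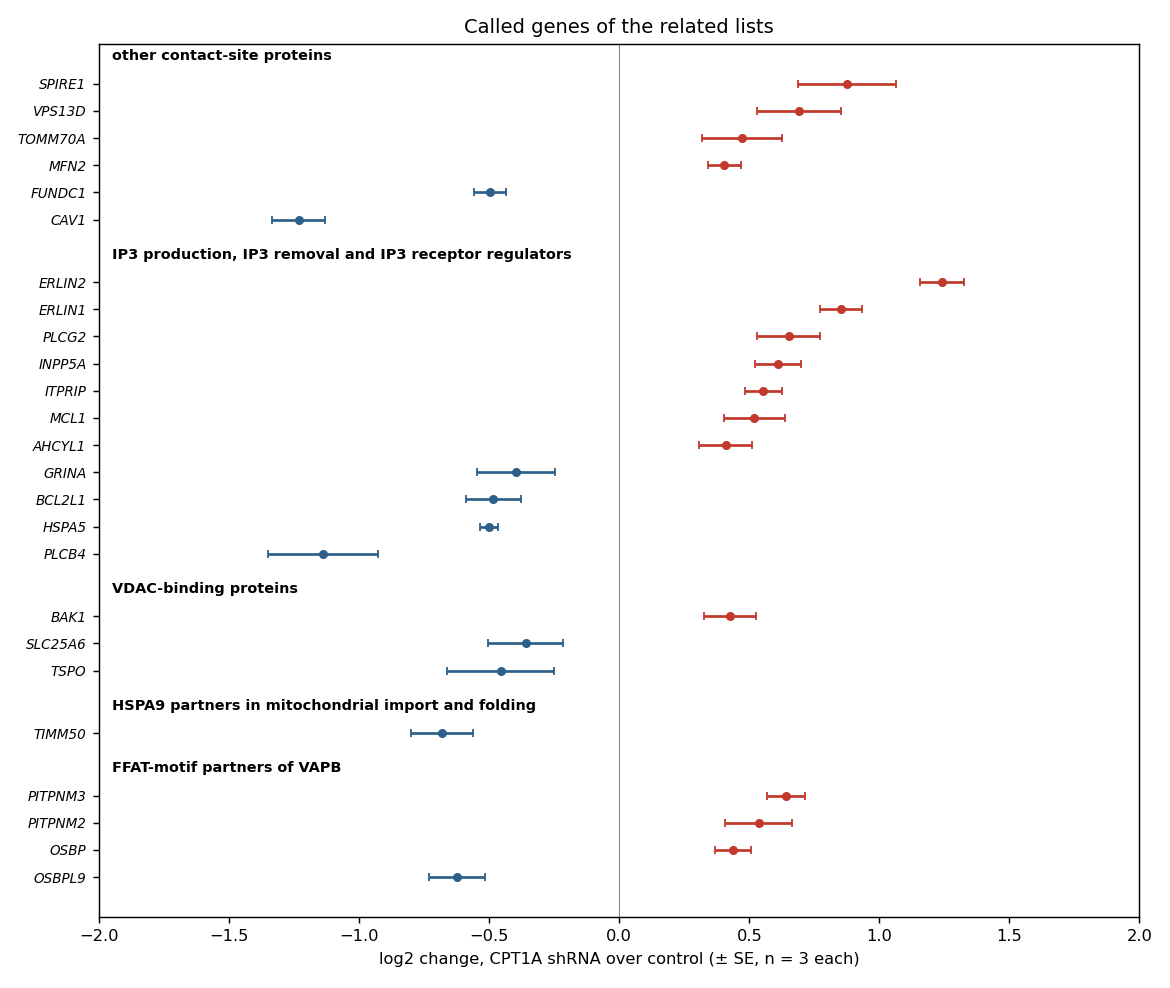
Log2 change, CPT1A shRNA over control, with its SE (horizontal axis) for called genes of the related lists, red where higher and blue where lower in the shRNA libraries. Both directions occur in 4 of the 5 lists with a called gene, from 1.24 for ERLIN2 to -1.23 for CAV1.

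Over the 18 alternative settings and left-out libraries, the log2 change of ITPR3 lay between 0.72 and 1.04 and that of RMDN3 between 0.57 and 0.75, each called in all of them. VAPB was called in all but the fit without the length trend, while ITPR2 and HSPA9 each lost the call without 3 single libraries.

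**Figure D5:**
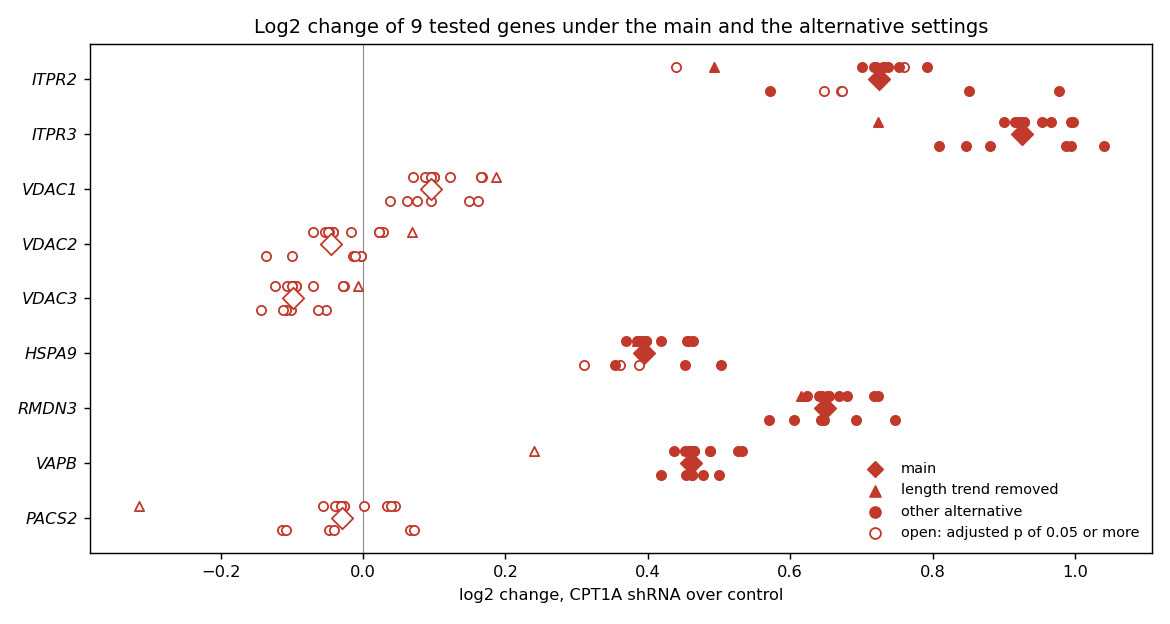
Log2 change, CPT1A shRNA over control (horizontal axis), of the 9 tested genes as reported (diamonds) and under the alternatives (other points, with those that leave out a library below the diamonds), open where the adjusted p was 0.05 or more. The points of ITPR3 and RMDN3 are all filled, and those of VAPB are filled but for the fit without the length trend at 0.24.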

How the data were processed

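RNA sequencing gave 3 libraries of SKOV3 cells with an shRNA against CPT1A and 3 of wild-type cells. The authors deposited whole-number read counts for each gene, and FPKM values were made by the authors from the counts, the exonic length and the summed counts of a library, a formula that returned 100% of the deposited values within 0.0051. The submitters' processing notes list HTSeq 0.6.1, DESeq2, HISAT2 2.0.1 and cutadapt 1.9.1, with no roles, and a mouse build, mm8, although the identifiers are human. The 10 genes are in GENCODE 29 on the same strand, none with the same start, so coordinates are those of the authors' table. The labels' protocol names poly(A) selection or rRNA removal, and no source used here states the strand setting, so reads of overlapping genes on opposite strands may not be told apart.

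Counts were tested with edgeR 4.0.16 in R 4.3.3 (TMM scaling, quasi-likelihood F test across genes, Benjamini-Hochberg over all genes tested). The SE comes from the library spread of log2 CPM (prior count 2) around the group means. DESeq2 1.42.0, limma 3.58.1, other scalings and filters, removal of a lowess trend on exonic length, and leaving out each library were alternatives. The procedure was tested on simulated data. It recovered 54% of 1.5-fold, 70% of 2-fold and 94% of 4-fold changes (50 genes each) and called 0.095% of unchanged genes. The simulation changed few of the 12784 genes, whereas 13.8% were called higher and 13.7% lower in the data, and it held no length trend. Its shares may therefore not carry over to the data. A gene that did not pass may still have changed by such smaller factors. Libraries of a group differed by more than counting error (chi-square over its degrees of freedom, 7.58 to 46.3), so each entered as its own library. The 10 genes and the lists were chosen with earlier results of these data known. All 10 genes, CPT1A and MFF are named, with up to 4 called genes of smallest p per list and the 3 genes most like the called one with the smallest p. UQCC2, BRF1, MCUR1, SMDT1 and the other list genes were named after their values were seen. The result of 1 list gene is not reported here.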

Additional observations from a re-analysis of the deposited data

How the results depend on the processing

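Of the 9 tested genes, ITPR3 (log2 change 0.72 to 1.04) and RMDN3 (0.57 to 0.75) kept direction and call under all 18 alternatives, and CPT1A did so too (-2.07 to -1.49). VAPB lost its call without the length trend (log2 0.24). ITPR2 lost it with limma on log2(FPKM + 1), at log2 0.44, and on log2(FPKM + 0.1), at log2 0.76, and it was not tested at a minimum of 5 FPKM. Leaving out 1 library at a time, ITPR2 ran from 0.57 to 0.98 and HSPA9 from 0.31 to 0.50, with 3 lost calls each, and 3 to 5 of the 10 genes were called higher. VDAC2 and PACS2, never called, changed sign: VDAC2 was at 0.028 with total counts only, 0.0222 with limma on log2(FPKM + 1), 0.0225 on log2(FPKM + 0.1) and 0.0681 without the length trend. PACS2 was at 0.045, 0.0341 and 0.0387 in the first 3 of these, at 0.00166 with a minimum of 5 FPKM, and from -0.11 to 0.0722 leaving out 1 library. The cause was not tested.

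Over all genes, leaving out 1 library gave 968 to 2539 higher and 914 to 2511 lower genes, with the lowest counts without control replicate 1 and without shRNA replicate 2 (1077 and 983). Related-list genes called higher numbered 15 in all, 24 with total counts only and 9 to 26 leaving out 1 library. Those called lower numbered 11, 7 with total counts only and 7 to 22 leaving out 1 library. Of the called genes 50.2% were higher, against 61.8% with total counts only, 60.5% with limma on log2(FPKM + 1) and 60.7% on log2(FPKM + 0.1). Deviations from the group mean had correlations of -0.04, 0.01 and -0.20 between libraries of the same replicate number, and -0.13 to 0.17 between other numbers. Deviations from a mean of 3 libraries sum to 0, so these values cannot tell whether the libraries were handled in pairs. A fit with the replicate block called 1666 genes higher and 1595 lower and changed no call among the 10. Of the 16 list genes picked by smallest p, 9 kept their call throughout, and none changed direction. ITPR1 was left out by the 1 FPKM minimum and was called in the edgeR fits with a filter that kept it. It was not fitted with the length trend removed, with DESeq2 or limma, or with a library left out.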
